A study of Mus musculus with 48 samples.

Results

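The clustered protocadherin genes encode cell-surface adhesion proteins of neurons. They lie in 3 neighbouring groups on mouse chromosome 18, named alpha, beta and gamma. All rows of the deposited count table that overlapped chr18:36900000-37860000 (GRCm38) were taken, which gave 93 loci of the 187695 in the table. RefSeq places 58 protocadherin genes there, 14 in the alpha, 22 in the beta and 22 in the gamma cluster. A locus is a stretch of the genome in which DNA captured by a methyl-CpG-binding domain gave a peak. A higher count therefore stands for more methylated CpGs in more of the cells, and it also depends on how many CpGs the stretch holds.

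In the alpha and gamma clusters each gene has a first exon of its own with its own promoter, which is spliced to a shared set of 3 constant exons. The genes of the beta cluster consist of a single coding exon. A neuron is known to use few of these promoters, chosen largely at random, and thereby gains a surface identity by which its branches recognise each other. Choice is known to depend on promoter methylation, laid down early in development with a part for DNMT3B, and on looping by CTCF and cohesin. The 5 C-type genes, Pcdhac1, Pcdhac2, Pcdhgc3, Pcdhgc4 and Pcdhgc5, differ in that many neurons use them together. A tissue sample averages over all of its cells, so the choice made by single cells cannot be read from these counts.

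The 48 libraries came from the amygdala of male C57BL/6 mice (C57BL/6N in the study's methods) of 4 months, taken from both hemispheres, with 8 libraries in each of 6 groups. Tph2+/+, Tph2+/- and Tph2-/- mice, from heterozygous parents, had 2, 1 or 0 working copies of the gene for tryptophan hydroxylase 2, the enzyme that limits serotonin synthesis in the brain. The Tph2-/- animals lacked it in all cells from conception. Control mice (C) grew up without stress, and maternal separation (MS) mice were taken from the dam for 3 h a day from postnatal day 2 to 15. All males lived singly after weaning and went through behavioural tests, which the controls share. Captured DNA gives no RNA marker by which the dissected tissue could be checked, and methylated cells in a mixture cannot be told apart from methylated copies within each cell.

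Library totals were between 7724481 and 14133801 counts, of which the protocadherin loci took between 0.0567% and 0.0959%. Replicates 3 and 7 of Tph2-/- MS, the shallowest of their group (8094939 and 8227995 counts), were not used, because the study dropped 2 libraries of that group, which the sources used here do not name. The study cited low counts and also shifted signal densities, so the 2 that it dropped may not be these. The 15 loci inside Tph2 moved between Tph2+/+ and Tph2-/- by -0.54 to 0.28 on the log2 scale, with 0 past the study's limits and 1 at an unadjusted p under 0.05 by edgeR. The deleted stretch was not given in the sources used here, so these loci do not test the genotype labels. Library numbers did not mix the conditions: controls had the numbers S1 to S17 and S42 to S48, and separated mice S18 to S41.

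Tph2-/- MS replicate 2 stood apart in the protocadherin loci. It held the highest value of all 46 libraries at 46 of the 93 loci and at 39 of the 59 loci over first exons. Its counts also leaned to loci rich in CpG. This lean was measured as a CpG slope, the change in log2 count of a library, relative to the other libraries, per standard deviation of CpG density over loci. The slope was 0.24 in this library and between -0.11 and 0.16 in the other 45. It was 0.33 and 0.12 in replicates 3 and 7, which were not used. Where replicate 2 enters, cluster sums and medians over the 93 loci are given with and without it. Counts at an unadjusted p under 0.05, dispersion percentiles and loci of the gene lists are given only with it.

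Methylated DNA was captured over the first exons of every protocadherin gene outside the C-type group. All 12 such alpha genes, all 22 beta genes and all 19 such gamma genes had at least 1 locus over the first exon. None of the 5 C-type first exons had a locus in the table. Of the 93 loci, 59 overlapped first exons (15 alpha, 24 beta, 20 gamma), 1 a constant exon, 5 an exon of another gene, and 28 lay in introns or between genes. The promoters of the C-type genes were not alike in CpG content. Within 300 bp of their starts the genome holds 6.33 CpGs per 100 bp at Pcdhac1, 8.17 at Pcdhac2 and 6.83 at Pcdhgc3, but 3.0 at Pcdhgc4 and 1.67 at Pcdhgc5. The median over the other genes was 3.67 in the alpha, 1.67 in the beta and 3.33 in the gamma cluster. The table lists only stretches in which the authors' software called a peak, so a missing locus gives no upper limit for methylation.

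**Figure D1:**
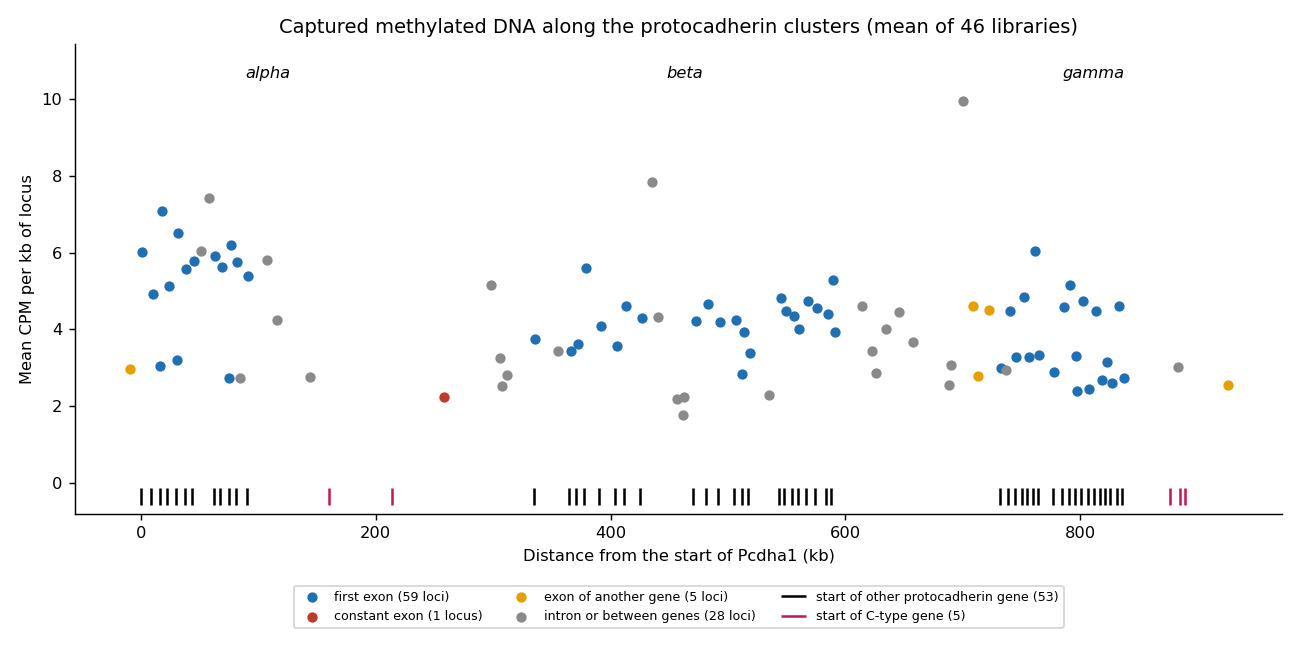
Mean CPM per kb of locus (y axis, linear, 46 libraries) for each of the 93 loci against the distance of its centre from the start of Pcdha1 in kb (x axis). Colours give what the locus overlaps and ticks below the points give gene starts. First exon loci fill the 3 clusters, while the starts of the 5 C-type genes (red ticks) have no first exon locus above them.

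The clusters differed in where the captured DNA lay relative to the annotated gene starts. In the alpha cluster the loci ran across the start of all 12 genes outside the C-type group. They began at a median position of -197.5 bp, with 0 at the start, and covered between 94.8% and 100% of the first exon. In the beta cluster only Pcdhb13 had a locus across its start. The first locus there began a median 695.5 bp inside the gene, and 25.2% to 72.7% of the exon was covered. In the gamma cluster only Pcdhgb5 had a locus across its start, the median first locus began 447.0 bp inside, and 29.1% to 99.2% of the exon was covered. The CpG density around the starts was close between alpha (median 3.67 per 100 bp, range 2.33 to 5.17) and gamma genes (3.33, range 0.5 to 5.0) and lower at beta genes (1.67, range 0.667 to 4.0). These are positions of peaks merged over libraries, and they carry no replicate error. Annotated first exons were 2382 to 2513 bp long at these alpha genes but 2340 to 5271 bp at beta genes. Covered shares therefore compare unlike lengths, and positions depend on where the annotation sets each start.

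**Figure D2:**
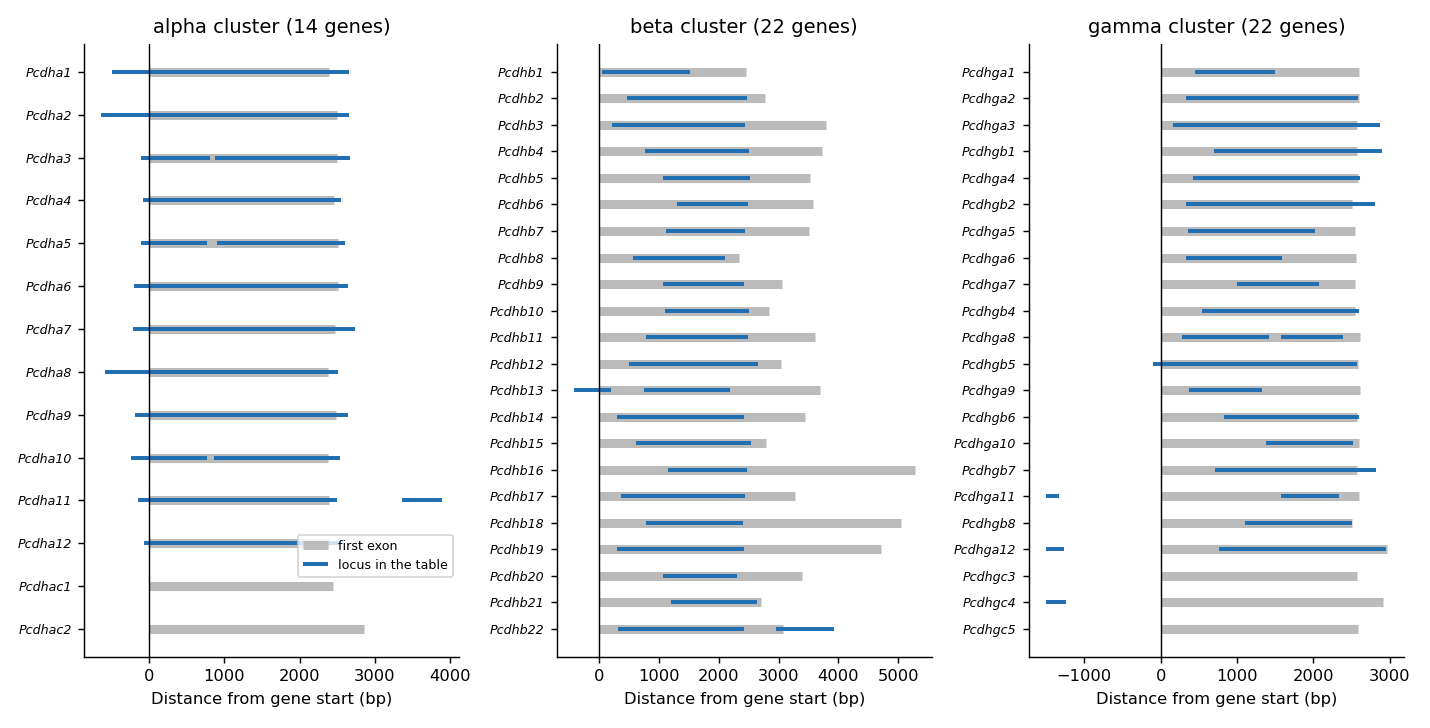
Position of loci (blue) relative to the annotated start of each gene (x axis, bp; 0 is the start) and to its first exon (grey), 1 row per gene in genomic order, for the alpha, beta and gamma cluster. Loci cross the start in 12 of 14 alpha genes, 1 of 22 beta genes and 1 of 22 gamma genes.

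Levels are given as CPM, counts scaled to the normalised library size. Per kb of locus, the first exons of the alpha cluster carried most captured DNA. Their median level was 5.63 CPM per kb (range 2.73 to 7.09), against 4.24 (2.83 to 5.6001) in beta and 3.29 (2.40 to 6.04) in gamma. The median over all loci of the table was 2.76. Median CpG densities had another order, with 4.32 per 100 bp in alpha, 3.95 in gamma and 3.25 in beta first exon loci, and 1.82 over all loci. Among the 1000 loci nearest in CpG density, the median first exon locus held percentile 40.5 in alpha, 37.4 in beta and 34.5 in gamma, so these exons lay somewhat below the middle for loci of their density. The 3 short alpha loci at the 5′ part of Pcdha3, Pcdha5 and Pcdha10 were the low ones, which is why the alpha range is wide.

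Within the gamma cluster the A and B subfamilies differed in level. The 13 loci over Pcdhga first exons had a median of 3.00 CPM per kb (2.40 to 4.59) and the 7 over Pcdhgb first exons 4.74 (3.14 to 6.04), so the subfamilies overlapped. The Pcdhgb loci were also wider (median 2120 against 1143 bp) and denser in CpG (4.58 against 3.10 per 100 bp). The highest gamma member lay over Pcdhgb2 (chr18:37690193-37692660, 6.04 CPM per kb) and the lowest over the 3′ part of the Pcdhga8 first exon (chr18:37727277-37728098, 2.40 CPM per kb, 1.70 CpGs per 100 bp). Across loci of a cluster, CpG density and log2 level were loosely related, with Pearson's r of 0.18 over 15 alpha, 0.46 over 24 beta and 0.26 over 20 gamma loci, all from the same libraries.

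The region as a whole was denser in loci than its surroundings on 1 side only. It held 96.9 loci per Mb, the 1 Mb before it 71, the 1 Mb after it 114, and the genome 68.9. Loci covered 15.6% of the interval, against 7.72% and 10.9% in the 2 flanks and 7.49% of the genome. The median width was 1408 bp, against 880 and 839 bp in the flanks. Levels differed likewise, with a median of 4.09 CPM per kb in the interval and 2.71 and 2.64 in the flanks.

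The constant exons were nearly bare of loci. Only the last alpha exon had 1, over the far 3′ end that a single annotated transcript carries (chr18:37187641-37188472). It was the lowest alpha member, with 2.24 CPM per kb and 0.962 CpGs per 100 bp. Its lowest, median and highest values were 1.88, 2.40 and 2.62 CPM in Tph2+/+ C and 0.51, 2.38 and 2.58 CPM in Tph2+/+ MS. They were 0.90, 1.49 and 2.77 CPM in Tph2+/- C and 0.94, 1.80 and 2.72 CPM in Tph2+/- MS. In Tph2-/- they were 0.77, 1.56 and 2.24 CPM in C and 0.46, 1.79 and 3.02 CPM in MS, and all 6 groups overlapped. No locus lay over the gamma constant exons.

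A group of 10 of the 93 loci, all in introns or between genes, consisted to at least 50% of 50-base stretches that occur more than once in the genome, so that reads there cannot be placed with certainty. Their levels reached from 1.76 to 9.95 CPM per kb and included the highest alpha member (chr18:36985756-36989853, 2614 bp from Pcdha8, 7.42 CPM per kb) and both the highest and the lowest beta member. The highest beta member lay 6242 bp from Pcdhb8 (chr18:37363852-37367055, 7.84 CPM per kb) and the lowest 8283 bp from Pcdhb9 (chr18:37391538-37392572, 1.76 CPM per kb). First exons shared less: the median repeated share was 12.5% in alpha, 5.95% in beta and 0.777% in gamma, with at most 24.7%. The 3 widest members were 2 such stretches, of 4335 and 4098 bp, and the locus over the first exon of Pcdha2, of 3287 bp (chr18:36938570-36941856).

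Between mice the protocadherin loci varied about as much as other loci of like count. The biological coefficient of variation, the spread beyond counting error, had a median of 0.195 (0.136 to 0.378). Among the 1000 loci nearest in mean count the median member held percentile 57.0, and 10 of 93 (10.8%) lay above percentile 90, close to the 10% that any set holds on average. Of these 10, 6 were among the repeated stretches above. The most variable were the pair of repeated loci near Pcdhb9, the lowest beta member and its neighbour at chr18:37392621-37393371 (percentiles 99.9 and 96.9), and the locus at the 3′ end of the Pcdhb22 exon (chr18:37521314-37522287, percentile 99.8), which holds no repeated stretch. Most of this Pcdhb22 locus lies beyond the annotated exon end at 37521419, and it counts as a first exon locus by partial overlap only.

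Summed over first exons, the captured DNA of each cluster overlapped between all groups. For the 15 alpha loci the lowest, median and highest library had 151, 171 and 196 CPM in Tph2+/+ C, and 157.5, 184 and 233 CPM in Tph2+/+ MS. In Tph2+/- they had 147.9, 177 and 214 CPM in C and 159, 179 and 262 CPM in MS. In Tph2-/- they had 155.7, 181.9 and 236 CPM in C and 151, 180.9 and 409 CPM in MS. Group means were 174 ± 15.6 (SD, n = 8), 189 ± 27.3 (n = 8), 179 ± 20.3 (n = 8), 186 ± 34.01 (n = 8), 187 ± 24.5 (n = 8) and 219.1 ± 98.3 CPM (n = 6) in that order. The high mean and spread of Tph2-/- MS came from replicate 2, and without it they were 181.2 ± 36.4 CPM (n = 5).

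The beta and gamma clusters showed the same picture at a lower level. Beta means lay between 157 ± 9.85 CPM in Tph2+/- C (SD, n = 8) and 168 ± 9.27 CPM in Tph2+/- MS (n = 8), apart from Tph2-/- MS with 183 ± 47.3 CPM (n = 6), which became 165 ± 15.2 CPM (n = 5) without replicate 2. Gamma means lay between 125.5 ± 4.69 CPM in Tph2+/+ C (n = 8) and 132 ± 13.6 CPM in Tph2+/+ MS (n = 8), apart from Tph2-/- MS with 150 ± 43.2 CPM (n = 6), which became 133.3 ± 13.2 CPM (n = 5). Replicate 2 alone held 409 CPM in alpha, 276 in beta and 235 in gamma.

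**Figure D3:**
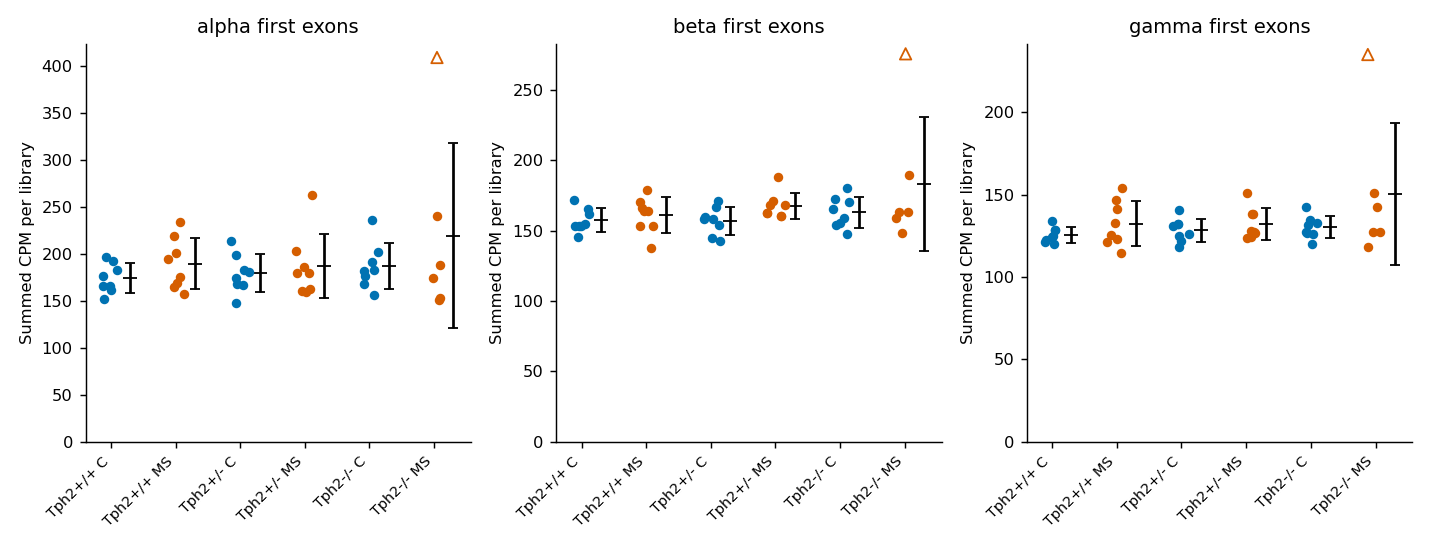
Summed CPM of first exon loci (y axis, from 0) in each of 46 libraries, by group (x axis; blue C, orange MS), for the alpha, beta and gamma cluster. Bars beside the points give mean and SD, and the open triangle is Tph2-/- MS replicate 2. Groups overlap in each cluster, and the triangle lies above all other points at 409, 276 and 235 CPM.

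The 3 sums rose and fell together from library to library. Over 46 libraries, Pearson's r of the log2 sums was 0.84 for alpha and beta, 0.89 for alpha and gamma and 0.89 for beta and gamma (Spearman's rho 0.65, 0.80 and 0.69). Without Tph2-/- MS replicate 2, r was 0.69, 0.80 and 0.72. The libraries share the normalisation, and the sums also followed the CpG slope, with r of 0.90 in alpha, 0.75 in beta and 0.82 in gamma (0.86, 0.61 and 0.75 without that library).

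Sums also moved with the library numbers within a condition. The alpha sum was 187 ± 18.4 CPM in controls S1 to S17 (SD, n = 17) and 162 ± 11.8 CPM in controls S42 to S48 (n = 7). It was 214 ± 35.4 CPM in MS libraries S18 to S26 without Tph2-/- MS replicate 2 (n = 7) and 172.5 ± 16.2 CPM in S27 to S41 (n = 14). Mean CpG slopes of these sets were -0.021 in S1 to S17, 0.091 in S18 to S26 with that replicate, -0.034 in S27 to S41 and -0.050 in S42 to S48. The labels do not say what the numbers stand for, and the part of the CpG slope in these differences was not tested. They also set no border between S26 and S27, which was chosen with earlier results of these data known. The difference between the 2 MS sets is therefore a description, and leaving out S18 to S26, as done below, is not an independent check.

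**Figure D4:**
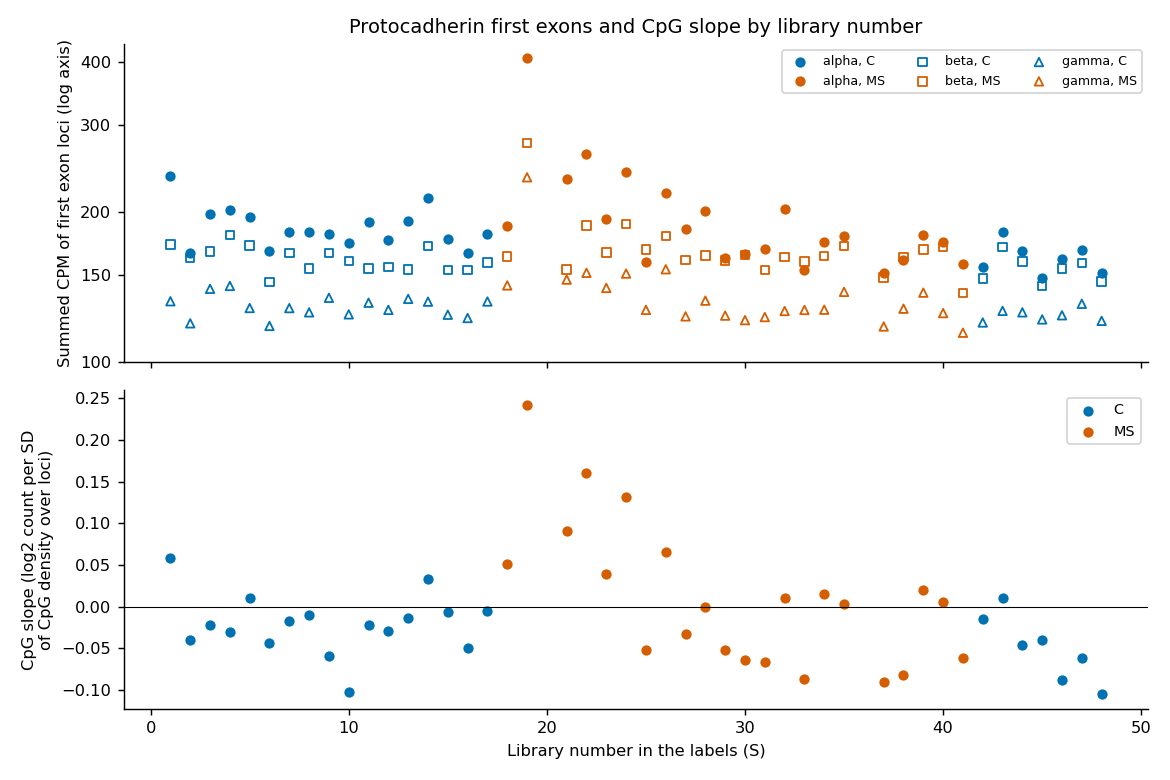
Upper panel: summed CPM of first exon loci (log axis) against the library number in the labels, for alpha (filled circles), beta (squares) and gamma (triangles); blue C, orange MS. Lower panel: CpG slope of the same libraries (log2 count per SD of CpG density). The highest alpha sum and the highest slope both belong to S19, which is Tph2-/- MS replicate 2, while other libraries of S18 to S26 reach down to an alpha sum of 159 CPM and a slope of -0.051.

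Each comparison of groups was fitted over all 187695 loci with edgeR's quasi-likelihood test, and a locus was called at the study's limits, an unadjusted p under 0.01 with a log2 fold change beyond 0.2. No protocadherin locus passed a Benjamini-Hochberg adjusted p of 0.05 in any comparison by edgeR, nor by DESeq2 or limma in the 8 comparisons of groups. Of all loci, 0.0128% passed that adjusted limit for MS against C over genotypes, 0.0139% for Tph2-/- and 0.00213% for Tph2+/- against Tph2+/+, 0.167% for late against early controls, and 0.0% in the remaining comparisons.

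Averaged over the 3 genotypes, MS mice had higher counts than C mice at 3 of 93 loci and lower at 0, which is 3.23% against 3.63% of all loci, a share near the background. At an unadjusted p under 0.05 there were 16 (17.2%, all loci 12.2%). The median over the 93 loci was 0.08 on the log2 scale, against 0.0017 over all loci. Above 0 were 70 of the 93 (75.3%), against 50.4% of all loci. The loci share libraries, so these directions are not independent. Loci rich in CpG moved further, with a median of 0.18 over the 10531 loci that hold at least 3 CpGs per 100 bp. By cluster, the first exon medians were 0.11 in alpha, 0.08 in beta and 0.11 in gamma.

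Of the 3 loci called there, the smallest p belonged to the repeated stretch 2614 bp from Pcdha8. Its lowest, median and highest values were 21.2, 26.8 and 39.3 CPM in 24 C libraries and 23.9, 29.9 and 53.9 CPM in 22 MS libraries, and the groups overlapped over most of their range. It rose by 0.23 ± 0.076 (log2, SE, edgeR adjusted p = 0.21). The other locus over the exon of Pcdhb22 (chr18:37518664-37520771) had 7.36, 10.4 and 12.9 CPM in C and 8.32, 11.7 and 23.02 CPM in MS. It rose by 0.23 ± 0.077 (adjusted p = 0.22), also with overlap. The third, over the first exon of Pcdha9 (chr18:36997690-37000522), is named because the count is small, after its values were seen, and rose by 0.23 ± 0.080 (adjusted p = 0.23). Without Tph2-/- MS replicate 2 none of the 93 loci was called in this comparison, against 2.06% of all loci, and the median was 0.033. Without S18 to S26 the count was also 0, against 1.26% of all loci, and the median was -0.031.

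Within single genotypes few loci were called. In Tph2+/+, 0 of 93 were called by edgeR, limma or DESeq2, against 1.31% of all loci, and 3 had an unadjusted p under 0.05 (3.23%, all loci 6.52%). The smallest p there belonged to the 2 wide repeated stretches near Pcdha8 and Pcdha7 (0.30 ± 0.13 and 0.25 ± 0.11, adjusted p = 0.76 for both).

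In Tph2+/-, 1 of 93 was called, against 0.779% of all loci. It lay 963 bp from Pcdha11 (chr18:37014214-37014846) and had 1.19, 2.17 and 3.08 CPM in C and 0.69, 1.37 and 2.04 CPM in MS. It fell by 0.64 ± 0.24 on the log2 scale (edgeR adjusted p = 0.9997), and the ranges overlapped. The locus over Pcdhb18 (chr18:37490248-37491878) had 4.49, 5.07 and 6.87 CPM in C and 4.59, 7.46 and 8.30 CPM in MS, a difference of 0.34 ± 0.15 that did not pass (adjusted p = 0.9997).

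In Tph2-/-, 1 of 93 was called, against 1.48% of all loci, and 14 (15.1%, all loci 7.11%) had an unadjusted p under 0.05. The called locus lay over Pcdhb19 (chr18:37497299-37499418). It had 5.49, 9.14 and 10.96 CPM in C and 8.44, 12.7 and 17.6 CPM in MS, and it rose by 0.49 ± 0.14 (edgeR adjusted p = 0.63). Without replicate 2 the MS values were 8.44, 12.4 and 14.2 CPM, and the ranges still overlapped. In MS libraries S18 to S26 the 3 Tph2-/- values were 12.96, 14.2 and 17.6 CPM, and in S27 to S41 they were 8.44, 10.96 and 12.4 CPM. The median over the 93 loci was 0.16 with that replicate and 0.012 without it, and over the loci rich in CpG 0.25 and 0.053. Without S18 to S26 the median over the 93 loci was -0.10, and the difference over Pcdhb19 was 0.22 and no longer called. The 2 loci called there were both lower in MS, against 1.18% of all loci called.

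Between genotypes, averaged over C and MS, Tph2-/- mice had higher counts than Tph2+/+ mice at 2 loci and lower at 0, against 0.748% of all loci. At an unadjusted p under 0.05 there were 10 (10.8%, all loci 4.08%). The median was 0.10 both over the 93 loci and over the loci rich in CpG. Without Tph2-/- MS replicate 2 these medians were 0.023 and 0.00051, and without S18 to S26 they were -0.0061 and -0.020. Both loci called lay over first exons. Over Pcdhb17 (chr18:37485384-37487459) the lowest, median and highest values were 6.23, 8.06 and 12.1 CPM in 16 Tph2+/+ and 7.64, 9.81 and 19.2 CPM in 14 Tph2-/- libraries, a rise of 0.33 ± 0.099 (edgeR adjusted p = 0.9999). Over Pcdhgb4 (chr18:37720914-37722972) they were 6.57, 9.92 and 11.5 CPM and 7.40, 10.8 and 21.6 CPM, a rise of 0.30 ± 0.099 (adjusted p = 0.9999). The highest Tph2-/- value at both was replicate 2 of the MS group, and the groups overlapped.

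Values of the 2 genes are given by genotype for the larger C set and the larger MS set of library numbers. The smaller sets, S18 to S26 and S42 to S48, are not shown. Each set holds 1 condition only, so number set and condition cannot be told apart here. For Pcdhb17, mean values in Tph2+/+ and Tph2-/- were 8.76 ± 0.81 (SD, n = 6) and 9.18 ± 0.70 CPM (n = 5) in S1 to S17, and 7.21 ± 1.064 (n = 5) and 8.87 ± 1.17 CPM (n = 3) in S27 to S41. For Pcdhgb4 they were 9.81 ± 1.23 (n = 6) and 11.99 ± 1.63 CPM (n = 5) in S1 to S17, but 9.24 ± 1.86 (n = 5) and 9.05 ± 1.51 CPM (n = 3) in S27 to S41. Without replicate 2 the rises were 0.22 for Pcdhb17 and 0.18 for Pcdhgb4, and neither was called.

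Tph2+/- and Tph2+/+ mice differed at 0 of 93 loci by edgeR, DESeq2 and limma, against 0.546% of all loci, with 2 at an unadjusted p under 0.05 (2.15%, all loci 3.47%). These lay over Pcdhga9 (chr18:37737302-37738264, 0.33 ± 0.16) and over an exon of Diaph1 at the end of the interval (chr18:37855406-37856130, 0.36 ± 0.17), and neither passed the limits (edgeR adjusted p = 1). Diaph1 encodes a formin that builds actin filaments. The median over the 93 loci was 0.0095.

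The study asked whether separation acts differently by genotype, with GE1 for the MS effect in Tph2+/- minus that in Tph2+/+ and GE2 for the effect in Tph2-/- minus that in Tph2+/+. For GE1, 1 of 93 loci was called, against 0.626% of all loci. It lay over Pcdhb6 (chr18:37335158-37336353). Values were 3.35, 5.12 and 5.94 CPM in Tph2+/+ C and 2.07, 4.06 and 5.45 CPM in Tph2+/+ MS, but 2.37, 3.31 and 5.48 CPM in Tph2+/- C and 3.88, 4.26 and 5.62 CPM in Tph2+/- MS. The medians thus moved down in Tph2+/+ and up in Tph2+/-, with overlap in both, and the difference was 0.59 ± 0.23 (edgeR adjusted p = 0.99999). Pcdhb2 (chr18:37295304-37297321) was the second, with 0.41 ± 0.20 (adjusted p = 0.99999), and was not called.

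For GE2, 0 of 93 loci were called by edgeR, DESeq2 or limma, against 0.558% of all loci, and 3 had an unadjusted p under 0.05 (3.23%, all loci 3.36%). The smallest p belonged to Pcdhb19 (0.46 ± 0.19) and Pcdhga9 (0.70 ± 0.33, adjusted p = 0.999999 for both). The median over the 93 loci was 0.11 with Tph2-/- MS replicate 2 and -0.094 without it. With limma voom on the same 46 libraries it was -0.029, so its sign was not stable.

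**Figure D5:**
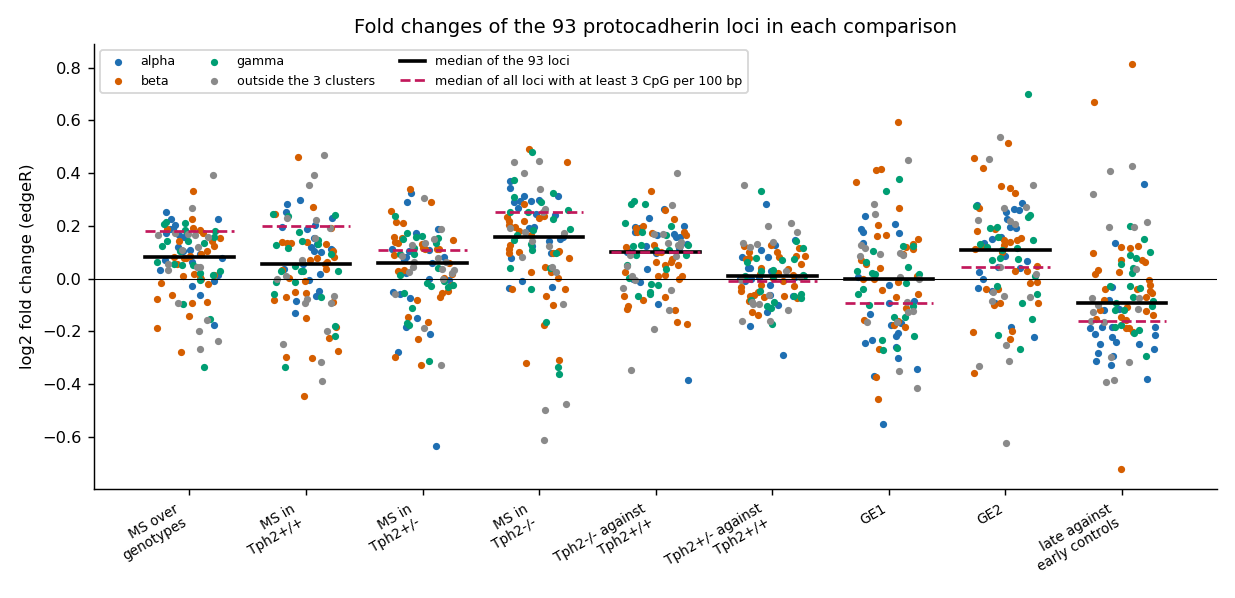
log2 fold change (y axis) of each of the 93 loci in the 8 comparisons of groups and in late against early controls (x axis), coloured by cluster. Black bars give the median of the 93 loci and dashed bars the median of all 10531 loci with at least 3 CpGs per 100 bp. The black bars lie between -0.09 and 0.16. In all but 2 comparisons the dashed bars move the same way by as much or more. The exceptions are GE2 (dashed 0.05, black 0.11) and Tph2+/- against Tph2+/+ (dashed -0.0095, black 0.0095).

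Among controls alone, which differed in neither treatment nor test, 6 of 93 loci were called between libraries S42 to S48 and S1 to S17 with genotype in the fit, 2 higher and 4 lower, against 3.29% of all loci. At an unadjusted p under 0.05 there were 18 (19.4%, all loci 10.03%). All 15 alpha first exon loci were lower in the late set, with a median of -0.22, while 16 of 24 beta loci (median -0.06) and 12 of 20 gamma loci (median -0.03) were lower. Of all loci, 50.2% were higher in the late set. The median over all loci rich in CpG was -0.16. The smallest p belonged to the lowest beta member, the repeated stretch near Pcdhb9. It had 0.89, 1.39 and 3.50 CPM in the 17 early and 2.06, 2.45 and 3.94 CPM in the 7 late controls, a difference of 0.81 ± 0.21 (edgeR adjusted p = 0.061).

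The locus at the 3′ end of the Pcdhb22 exon moved the other way. It had 1.65, 3.48 and 6.58 CPM in early and 1.05, 2.12 and 3.97 CPM in late controls, and fell by 0.72 ± 0.19 on the log2 scale (adjusted p = 0.072). It also differed between sets of MS libraries, with a median of 5.22 CPM in S18 to S26 and 3.18 CPM in S27 to S41. Both loci overlapped between the sets. The others called, named after their values were seen, were the neighbour of the repeated stretch near Pcdhb9 (0.67), the first exons of Pcdha4 (-0.31) and Pcdha7 (-0.28) and a locus 54029 bp from Pcdhb22 (-0.39).

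Genes known to act on the clusters showed no shared direction. Loci were counted inside 21 genes for promoter choice and methylation, among them CTCF, cohesin subunits and loaders, DNA methyltransferases and TET enzymes, of which 17 held loci. For MS against C over genotypes, 4 loci rose and 2 fell (5.83% of the list, against 3.63% of all loci). Without Tph2-/- MS replicate 2 the share of all loci called was 2.06%, and the lists were not counted again without it. The 4 lay in Wapl, the cohesin release factor (0.41 ± 0.15), Dnmt1, the maintenance methyltransferase (0.24 ± 0.071), Dnmt3a, a de novo methyltransferase (0.43 ± 0.16), and Uhrf1, which brings DNMT1 to replicated DNA (0.28 ± 0.095). The 2 that fell lay in Nipbl, the cohesin loader (-0.54 ± 0.14 and -0.46 ± 0.15). None had an adjusted p under 0.05, and the smallest was 0.11.

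In Dnmt3b, the methyltransferase known to act on protocadherin promoters, 1 locus (chr2:153669119-153669978) was lower in Tph2-/- MS than in Tph2-/- C by -0.73 ± 0.25 (edgeR adjusted p = 0.66) and lower in Tph2-/- than in Tph2+/+ by -0.47 ± 0.16 (adjusted p = 0.9999). These 2 comparisons share the Tph2-/- MS libraries. Of 39 loci in 7 of 10 genes for signalling from the cytoplasmic domains, 0 were called for MS over genotypes by edgeR. In the other 7 comparisons of groups at most 2 loci of the first list were called. Of the signalling list 1 locus in Fyn, a tyrosine kinase, was higher in Tph2-/- than in Tph2+/+ (0.50 ± 0.16, edgeR adjusted p = 0.9999).

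Protocadherins outside the clusters, each with a promoter of its own, had 87 loci in 10 of 12 genes. For MS over genotypes 5 rose and 1 fell (6.90% of the 87, against 3.63% of all loci), with Pcdh15 holding loci in both directions. In the other 7 comparisons of groups at most 2 (2.30%) were called, against 0.546% to 1.48% of all loci. The locus in Pcdh12 (chr18:38271418-38272493), a protocadherin of blood vessel walls, was higher in Tph2-/- MS than in Tph2-/- C by 0.79 ± 0.19 (edgeR adjusted p = 0.52). Between late and early controls 2 of these loci rose and 5 fell (8.05% of the 87, against 3.29% of all loci). The 2 that rose, both in Pcdh15, were the only loci of the 3 lists with an adjusted p under 0.05 in any of the 9 comparisons (0.60 ± 0.14, adjusted p = 0.0285, and 0.53 ± 0.13, adjusted p = 0.0498).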

How the data were processed

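MBD-seq, in which methylated DNA fragments are captured by a methyl-CpG-binding domain and sequenced, was carried out by the authors on amygdala DNA. Per the labels and the study's methods, reads were aligned to GRCm38 with Bowtie2 (2.1.0), peaks were called with MACS and merged over libraries, and raw read counts per merged peak were taken with DiffBind (2.0.9). The authors deposited these counts, without normalisation, for 48 libraries, and 0 columns lacked a sample. Because a merged peak needs a call, unlisted stretches carry no value.

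From the counts, TMM factors, CPM and quasi-likelihood F-tests were computed with edgeR (4.0.16), with 1 term per group, trended dispersion and robust fitting, over all 187695 loci in 46 libraries. Standard errors are the fold change over the root of F, an approximation. DESeq2 (1.42.0), limma voom (3.58.1), other scalings, library sets, covariates and filters were alternatives. R 4.3.3 was used. The test was also run on simulated counts, drawn independently for each library with the trended dispersion. These held no CpG slope, outlying library or litters, so they do not check the calls against such features. CpG density, gene models and repeated 50-base windows came from RefSeq's GRCm38.p6. A locus was assigned to a first exon on any overlap, and constant exons are those shared by the alpha or gamma genes. CpG slopes used loci with a mean count of at least 10.

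Named loci were, in each cluster, those of highest and lowest CPM per kb, the 2 of smallest p in each comparison, the 3 widest, the 3 of highest dispersion percentile, and those over constant or C-type exons. The members, lists and tests were chosen with earlier results of these data known. The study assigned whole litters to C or MS and kept fewer litters per condition than the fits hold libraries. Some libraries of a condition therefore come from littermates, and nothing says which. The tests treat all libraries as independent, so p-values measure the spread between these samples and not between litters. Counting intervals cover counting error only and were not used.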

Additional observations from a re-analysis of the deposited data

Results flagged for a closer look

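Dixon's test was applied to 138 sets of values, from 3 cluster sums and 20 named loci in 6 groups. In 16 of them the gap of a library to its neighbour exceeded the 95% critical value. Chance would give about 6.9 in sets not chosen by their values. Most named loci were picked by their p, spread or level in these same data, so 6.9 is no fair expectation for them. The groups and loci also share libraries, so the flags are not independent.

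Of the 16, 6 were Tph2-/- MS replicate 2 as the highest of its group. It held 409 CPM against 240 for the next library in the alpha sum, 276 against 190 CPM in the beta sum and 235 against 151 CPM in the gamma sum. At single loci it held 38.4 CPM over Pcdha2, 19.2 CPM over Pcdhb17 and 23.02 CPM over Pcdhb22. Its CpG slope of 0.24 was the highest of the 46 libraries, and its normalisation factor of 0.78 the lowest. The part of either in these values was not tested.

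Tph2+/- MS replicate 1 was highest of its group in the alpha sum (262 CPM, next 203) and in the beta sum (188.3 CPM, next 171).

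The other 8 flags fell on single loci. Tph2+/+ C replicate 8 was lowest over Pcdha2 (11.03 CPM) and highest at the locus 963 bp from Pcdha11 (3.09 CPM). Tph2+/+ MS replicate 1 was highest at the repeated stretch near Pcdha8 (49.1 CPM). Tph2-/- MS replicate 8 and Tph2+/- C replicate 7 were highest at the 2 repeated loci near Pcdhb9 (4.30 and 3.81 CPM). Tph2+/- MS replicate 2 was lowest over Pcdhb19 (7.40 CPM). Tph2-/- C replicate 2 was highest over Pcdhgb2 (18.99 CPM), and Tph2-/- C replicate 1 was lowest over Pcdhga9 (1.16 CPM).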

How the results depend on the processing

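All counts here are of the 93 loci at the study's limits. For MS over genotypes (3) the count was 0 with total counts alone, without the MS libraries S18 to S26, without Tph2-/- MS replicate 2, with a covariate for controls S42 to S48 and with the CpG slope as covariate, 1 with limma voom, 5 with DESeq2 and 7 with all 48 libraries. The share of all loci called moved too, from 3.63% in the main fit. In the same order it was 3.24%, 1.26%, 2.06%, 2.39%, 1.39%, 2.22%, 4.15% and 5.79%. In the other comparisons of groups this share lay between 0.464% and 2.09%. The exception was 5.37% for MS in Tph2-/- with all 48 libraries. For MS in Tph2+/+ (0) total counts gave 1. For MS in Tph2+/- (1 lower) total counts gave 2, both higher, with the locus near Pcdha11 at -0.60 and not called, leaving out S18 to S26 gave 2, 1 higher and 1 lower, and both covariates and limma gave 0. For MS in Tph2-/- (1 higher) all 48 libraries gave 9 higher, the count was 2, both lower, without S18 to S26, and 2, both higher, when replicates 2 and 3 were dropped instead of 3 and 7. For Tph2-/- against Tph2+/+ (2) all 48 libraries gave 4, replicate 2 left out gave 0, and 1 was called without S18 to S26, without replicates 2 and 3, with the CpG slope and with limma. For GE1 (1) DESeq2 size factors and leaving out S18 to S26 gave 0 and total counts 2. For GE2 (0) total counts, S18 to S26 left out and replicate 2 left out each gave 1. In Tph2-/-, the locus near Pcdha7 changed sign without S18 to S26, from 0.29 to -0.086. Which cause lies behind these moves was not tested. With the CpG slope as covariate the median over the 93 loci for MS over genotypes went from 0.08 to -0.004. Of 208 refits of single named loci, 175 kept direction and side of the limits, 27 lost and 5 gained the call, and 1 turned. All 27 losses fell on loci called in the main fit of that comparison. Most of the 175 were of loci not called there, so the total does not measure how stable the calls were. The alternative without replicate 2, in addition to 3 and 7, was chosen after seeing the data.

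The replicate numbers gave no clear pairing of libraries. Over 110 same-numbered pairs of different groups the mean correlation of deviations was 0.018, and 14 were over 0.1. Over 770 other-numbered pairs the mean was -0.0024, and 80 were over 0.1. Litters are not given, so pairing by litter was not tested. With the replicate block 2 loci were called for MS over genotypes, against 3.68% of all loci. It called 1 each for MS in Tph2+/-, MS in Tph2-/- and GE1, 2 for Tph2-/- against Tph2+/+, and 0 elsewhere. Mean cluster sums over all libraries moved by less than 1 SD between libraries with DESeq2 size factors, total counts, all 48 libraries and without S18 to S26. The alpha mean went from 187.7 to 177.1 CPM without S18 to S26. A mean over so many libraries can hardly move by 1 SD, so this does not bear on differences between groups. Loci of low count, at about 1 to 2 CPM, allow only coarse comparison at these depths.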
